A study of Mus musculus with 24 samples.

Results

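The genes described here are the Zfp-named zinc finger genes of the mouse, those whose symbol is Zfp followed by a number, with Zfp42 left out. They were taken by symbol from the deposited gene table, which held 342 of them among 14737 gene records, and 329 of the 342 reached at least 1 FPKM in at least 3 samples and could be tested beside 13373 genes in all. Polyadenylated RNA had been sequenced from 24 libraries of 129/Sv mouse embryonic stem cells and of the embryoid bodies grown from them on the way to beating heart tissue. Both genotypes were cultured on feeder fibroblasts in serum and LIF and then aggregated in hanging drops. The 8 groups of 3 biological replicates were Carma3xpA/+ at d0, d3, d6 and d10 and WT at d0, d3, d6 and d10, where d0 is the undifferentiated culture. Carma makes a long noncoding RNA, and in Carma3xpA/+ cells 1 of its alleles holds 3 inserted polyadenylation signals meant to end transcription early, while the other is intact. The labels do not say whether replicates were separate clones or separate cultures, so a p-value here speaks only of the spread among libraries, which may be technical. The tables hold protein-coding genes, and Carma was not analysed here, so the genotype labels could not be checked against the targeted gene itself.

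A zinc finger of the C2H2 type is a short fold held by a zinc ion, and proteins with many such fingers in a row can read long stretches of DNA. Many members of this family in mammals join their fingers to a KRAB domain, which binds the corepressor Trim28 and through it the histone methyltransferase Setdb1. In early embryos and embryonic stem cells this machinery silences endogenous retroviruses and protects imprints. The genes have multiplied by local duplication and lie in clusters on several chromosomes. Other members with the same style of name are not KRAB proteins at all and act in lineage choice, mRNA decay, splicing or ribosome assembly.

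Of the 342 genes, 332 had at least 1 match to a C2H2 letter pattern in their predicted protein, with a median of 11 matches and a range of 0 to 36. A KRAB A-box letter pattern was found in 157 and not in 185. This pattern misses some known KRAB genes, so the second group is a mixture. The genes were spread over chromosomes 7 with 84 members, 17 with 41, 4 and 13 with 29 each, 2 with 23, 8 with 22, and others with 17 or fewer. With neighbours counted as one cluster when they started within 500 kb of each other, 20 clusters had at least 4 tested genes, and together they held 176 members. The largest had 23 members on chromosome 17, 18 on chromosome 4 and 17 on chromosome 13.

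Most of the family was expressed at a low level. The median of the mean over the 8 groups was 3.25 FPKM, a unit that divides fragments by transcript length and by library total. The 13 members that fell short of the filter, among them Zfp366, Zfp108 and Zfp169, were not tested. The highest was Zfp207, a microtubule-binding partner of the checkpoint protein Bub3. It had 26.5, 48.6 and 42.6 FPKM in the d0 Carma3xpA/+ libraries, 50.5 to 51.9 FPKM at d3, 35.4 to 40.9 FPKM at d6 and 26.0 to 34.1 FPKM at d10. In WT the Zfp207 values were 34.0 to 41.7, 50.3 to 57.0, 38.3 to 40.7 and 27.2 to 30.2 FPKM on the same days. Next came Zfp990 of the chromosome 4 cluster and Zfp106, which codes for an RNA-binding protein that motor neurons need. Zfp706, which helps stem cells leave self-renewal, was the fourth and among the steadiest, at 21.2 to 31.0 FPKM over all 24 libraries.

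The sum over all 342 genes was largest at d3 in both genotypes. In Carma3xpA/+ it was 1410, 1676 and 1650 FPKM at d0, 2158, 2175 and 2178 FPKM at d3, 1867, 1824 and 1878 FPKM at d6, and 1474, 1076 and 1265 FPKM at d10. In WT it was 1734, 1707 and 1772 FPKM at d0, 2223, 2065 and 2116 FPKM at d3, 1785, 1746 and 1864 FPKM at d6, and 1385, 1334 and 1393 FPKM at d10. Every d3 library lay above every library of the other days in its genotype. In bulk RNA, fewer cells of a type and less RNA per cell cannot be told apart.

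**Figure D1:**
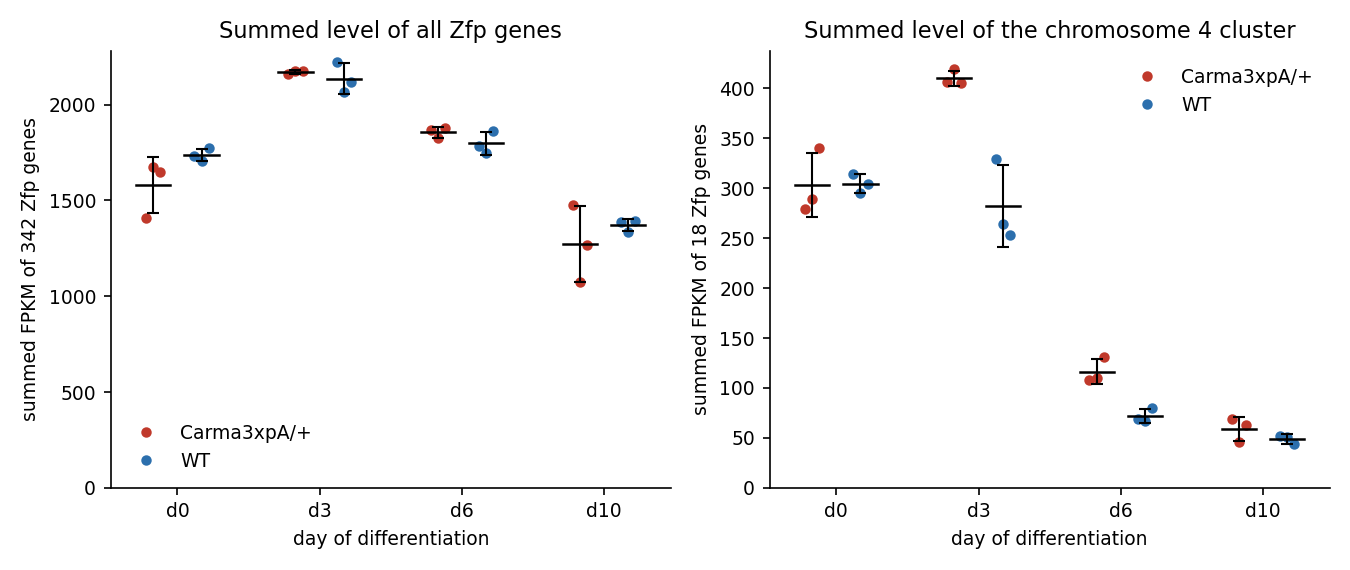
Summed FPKM (y axis, linear from 0) of all 342 Zfp genes (left) and of the 18 genes of the chromosome 4 cluster (right) on each day (x axis), for Carma3xpA/+ in red and WT in blue. Points are libraries and black bars the mean and SD of 3 libraries. The family sum peaks at d3 in both genotypes. The cluster sum is 405 to 419 FPKM in Carma3xpA/+ and 253 to 329 FPKM in WT at d3, and lower in both at d6 and d10.

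Some properties of the libraries touch these values. The number of genes at 1 FPKM or more was 10667 to 11921, and the number of members at that level was 217 to 312. The lowest of both counts belonged to replicate 1 of Carma3xpA/+ at d0, whose log2 values correlated at 0.950 and 0.955 with the other d0 libraries of its genotype, against 0.967 to 0.994 for all other pairs of replicates. The main counts that include d0 of Carma3xpA/+ are therefore also given without it, or as a range over fits leaving out 1 library. Other results that include it, such as those of single genes, lists, chromosomes and clusters, are mostly given with it only. The embryonic stem cell markers Pou5f1 and Nanog were high at d0 and low by d6. Pou5f1 had not fallen at d3, with a mean of 327 FPKM in both genotypes. At d0 it averaged 291 FPKM in Carma3xpA/+ and 243 FPKM in WT, and at d6 19.9 and 16.8 FPKM. Markers of heart muscle, blood, endothelium and visceral endoderm rose by d6, so the embryoid bodies are mixtures. The d0 cultures were grown on feeder fibroblasts. The 8 fibroblast markers summed to 16.1 to 30.8 FPKM in Carma3xpA/+ and 19.0 to 25.7 FPKM in WT at d0. Most of it came from Col1a1, at 13.0 ± 10.2 FPKM in Carma3xpA/+ and 13.1 ± 1.58 FPKM in WT (SD, n = 3). Thy1 averaged 6.61 FPKM in Carma3xpA/+ and 3.69 FPKM in WT, and Lox 1.69 and 3.28 FPKM. Col1a2, Col3a1, Postn, Dcn and Lum averaged below 1 FPKM in both genotypes. The part of feeder RNA in the d0 values was not tested. The depth of the libraries is unknown, since FPKM values carry no counts.

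Most of the tested family rose between d0 and d3. In Carma3xpA/+ 197 of 329 tested members (59.9%) were higher at d3 than at d0 and 22 were lower, by limma with a Benjamini-Hochberg adjusted p under 0.05 over all genes tested, where 52.4% of all genes were called, 27.5% higher and 24.9% lower. In WT 181 members (55.0%) were higher and 34 lower, where 55.5% of all genes were called, 27.7% each way. The median log2 change of the members was 0.47 in Carma3xpA/+ and 0.41 in WT, beside 0.01 and -0.00 over all genes tested. The same 159 members were higher in both genotypes, which is 80.7% of the Carma3xpA/+ list and 87.8% of the WT list. The overlap over all genes was not counted. Without replicate 1 of Carma3xpA/+ at d0, 178 members were higher and 23 lower in that genotype. Every log2 change was computed from log2(FPKM + 1), which understates the change of low genes.

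The step from d3 to d6 was mixed. In Carma3xpA/+ 83 members were higher at d6 and 80 lower, where 63.3% of all genes were called, 37.8% higher and 25.5% lower. In WT 66 members were higher and 86 lower, where 60.1% of all genes were called, 35.4% higher and 24.7% lower. Quantile normalization of the log values turned these splits to 41 higher and 137 lower in Carma3xpA/+ and to 33 and 165 in WT. It also moved the median of all genes to -0.06 from 0.11 in Carma3xpA/+ and to -0.07 from 0.10 in WT, so only the position below the other genes held under both scalings: the members' medians were 0.06 and -0.06 as deposited and -0.23 and -0.33 after quantile normalization.

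From d6 to d10 the family turned down. In Carma3xpA/+ 188 members (57.1%) were lower at d10 and 11 higher, where 55.3% of all genes were called, 29.1% lower and 26.2% higher. In WT 140 (42.6%) were lower and 11 higher, where 48.5% of all genes were called, 23.9% lower and 24.6% higher. The median change was -0.42 in Carma3xpA/+ and -0.28 in WT, beside -0.02 and -0.01 over all genes. Shared by both genotypes were 119 lower members, 63.3% of the Carma3xpA/+ list and 85.0% of the WT list. Over the course, 122 members in Carma3xpA/+ and 82 in WT were higher at d3 than at d0 and lower at d10 than at d6. Neither these counts nor the overlap between genotypes was made over all genes, so no background stands beside them. Comparing the ends, 124 members were higher and 88 lower at d10 than at d0 in Carma3xpA/+, where 68.2% of all genes were called, 40.9% higher and 27.3% lower. In WT 131 were higher and 81 lower, where 70.8% of all genes were called, 42.2% higher and 28.6% lower. After quantile normalization this last comparison had 90 higher and 122 lower in Carma3xpA/+ and 95 and 123 in WT, with the median of all genes at -0.02 in both, against 0.14 and 0.16 as deposited.

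**Figure D2:**
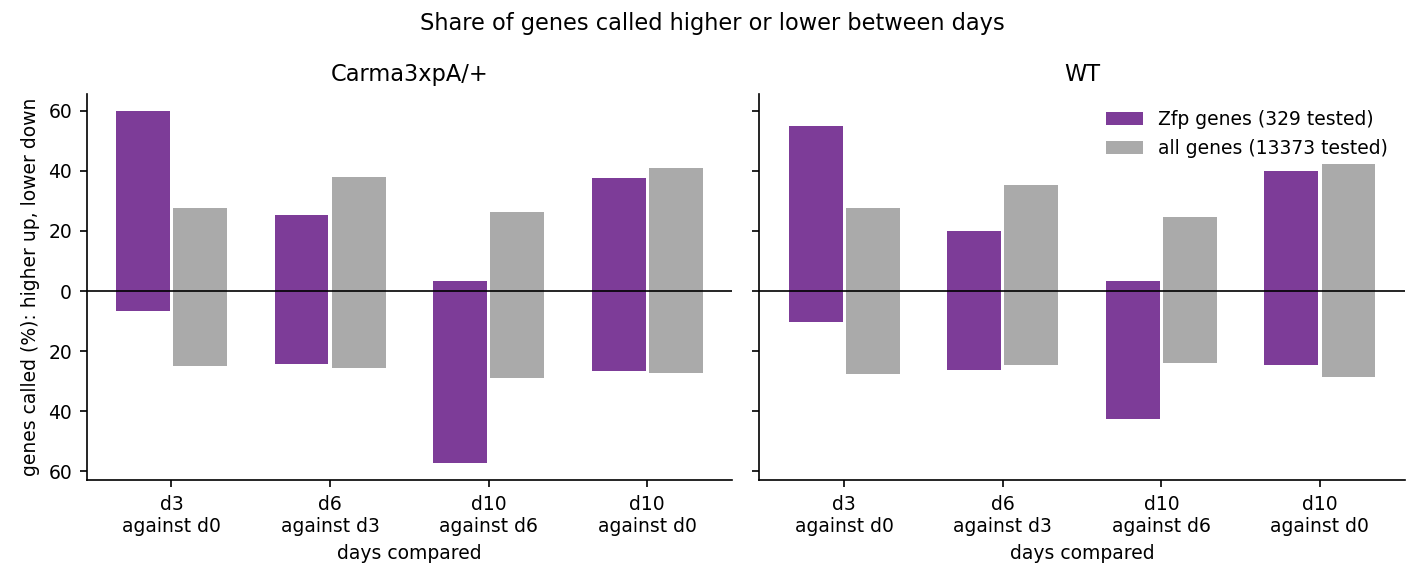
Percent of genes called higher (bars up) or lower (bars down) between days, for the 329 tested Zfp genes in purple and all 13373 genes tested in grey, in Carma3xpA/+ (left) and WT (right). For d3 against d0 the purple bars reach 59.9% and 55.0% upward, beside 27.5% and 27.7% of all genes. For d10 against d6 they reach 57.1% and 42.6% downward, beside 29.1% and 23.9%.

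The day with the highest mean was also counted gene by gene, from the same group means. More members peaked at d6 than at d3 in Carma3xpA/+, and more at d3 than at d6 in WT. In Carma3xpA/+ 35.0% of the members peaked at d3 and 47.7% at d6, where 21.8% and 28.1% of the other genes did, while 7.60% peaked at d10, where 29.0% of the other genes did. In WT 42.9% peaked at d3, 35.9% at d6 and 7.60% at d10, where 22.1%, 23.8% and 30.9% of the other genes did. Of the members with the KRAB pattern, 105 of 153 were higher at d3 and 5 lower in Carma3xpA/+, against 92 higher and 17 lower of the 176 without it. In WT the counts were 91 higher and 13 lower with the pattern and 90 and 21 without. Of all genes 27.5% were higher and 24.9% lower in Carma3xpA/+, and 27.7% each way in WT. At d6 the counts ran apart. In Carma3xpA/+ 27 members with the pattern were higher and 50 lower than at d3, against 56 higher and 30 lower without it, and in WT 19 were higher and 56 lower, against 47 and 30. Of all genes 37.8% were higher and 25.5% lower at this step in Carma3xpA/+, and 35.4% and 24.7% in WT. Without the chromosome 4 cluster described below, the 135 others with the pattern had 27 higher and 33 lower in Carma3xpA/+ and 19 and 39 in WT. The difference between the groups with and without the pattern was not tested.

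Zfp266 had one of the largest rises at d3. It had 29.1, 26.9 and 25.4 FPKM at d3 in Carma3xpA/+, against 3.86, 7.07 and 6.99 FPKM at d0, a log2 change of 2.05 ± 0.18 (SE; limma adjusted p = 1.4e-08). In WT it had 33.1, 33.3 and 34.6 FPKM at d3, against 6.58, 6.85 and 7.20 FPKM at d0, a log2 change of 2.14 ± 0.18. No library of either day overlapped in either genotype. Zfp799 on chromosome 17, Zfp87 in the chromosome 13 cluster and Zfp763 on chromosome 17 rose by 2.01, 1.77 and 1.74 in Carma3xpA/+, and Zfp799 and Zfp87 rose by 1.89 and 1.98 in WT. Zfp946 rose by 1.93 in Carma3xpA/+, and Zfp239 and Zfp930 rose by 1.72 and 1.77 in WT.

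The few members that fell at d3 included Zfp296. This gene, which promotes reprogramming to the pluripotent state, had 5.86, 5.52 and 6.15 FPKM at d3 in Carma3xpA/+, against 38.0, 24.6 and 21.4 FPKM at d0. In WT it had 5.24, 3.79 and 3.30 FPKM at d3, against 50.5, 50.5 and 40.1 FPKM at d0. At d6 it had 0.733 to 1.00 FPKM in Carma3xpA/+ and 0.717 to 0.837 FPKM in WT. The log2 change at d10 against d0 was -3.46 ± 0.16 in Carma3xpA/+ and -4.61 ± 0.16 in WT. Zfp36, a CCCH-type zinc finger protein that speeds the decay of AU-rich mRNAs, fell by 2.08 in Carma3xpA/+ and by 2.39 in WT at d3, and Zfp367 fell by 1.61 and 1.49.

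Among the members known from work on retroelements and imprinting, no common course was seen. Of 8 such genes, 4 were higher and 2 lower at d3 than at d0 in Carma3xpA/+, where 27.5% of all genes were higher and 24.9% lower. In WT 3 were higher and 2 lower, where 27.7% of all genes were called each way. Zfp445, which together with Zfp57 keeps imprints through early development, had 22.2, 20.8 and 20.9 FPKM at d3 in Carma3xpA/+, against 7.25, 11.1 and 11.3 FPKM at d0, and 23.4, 22.8 and 22.1 FPKM in WT, against 13.9, 14.3 and 13.3 FPKM. It rose by 1.06 and 0.68 and fell at d10 against d6 by 1.25 and 0.78. Zfp57 itself varied widely between replicates, with 27.7, 11.5 and 33.1 FPKM in Carma3xpA/+ and 8.29, 5.91 and 18.2 FPKM in WT at d3, and was called in no comparison.

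Zfp568, a repressor of a placental transcript of Igf2, ran the other way from Zfp445. It had 13.5, 14.6 and 13.3 FPKM at d3 in Carma3xpA/+, against 17.5, 24.7 and 25.3 FPKM at d0, and 16.8, 16.5 and 17.3 FPKM in WT, against 35.5, 35.9 and 35.3 FPKM at d0. The falls were 0.65 in Carma3xpA/+ and 1.03 in WT, and the first was lost without replicate 2 or 3 of Carma3xpA/+ at d0. Zfp819, a repressor of retroelements in stem cells, fell in each of the first 2 steps, to 0.171 to 0.336 FPKM at d6 in Carma3xpA/+ and 0.134 to 0.324 FPKM in WT. At d0 it had 5.79 to 13.2 FPKM in Carma3xpA/+ and 6.56 to 9.97 FPKM in WT. Zfp809, which silences proviruses in embryonic stem cells, had 5.40 to 6.01 FPKM at d6 in Carma3xpA/+, against 12.6 to 14.1 FPKM at d3, and 4.30 to 5.00 FPKM in WT, against 9.27 to 10.6 FPKM. It fell by 1.12 in Carma3xpA/+ and 0.97 in WT at this step.

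Of 21 genes coding for partners of KRAB proteins (corepressors, heterochromatin proteins and the HUSH complex), 10 were higher and 1 lower at d3 than at d0 in Carma3xpA/+, and 8 higher and 3 lower in WT. Of all genes 27.5% were higher and 24.9% lower in Carma3xpA/+, and 27.7% each way in WT. Trim28 averaged 136 FPKM at d3 in Carma3xpA/+, against 166 FPKM at d0, and 135 FPKM in WT, against 165 FPKM. Trim28 then averaged 82.1 and 82.6 FPKM at d6 in Carma3xpA/+ and WT. Pphln1, a HUSH subunit, rose by 1.77 in Carma3xpA/+ and 1.41 in WT at d3. At d6 against d3, 12 of the 21 were lower and 1 higher in Carma3xpA/+, where 25.5% of all genes were lower, and 11 were lower and 1 higher in WT, where 24.7% were. At d10 against d6, 12 were lower and 0 higher in Carma3xpA/+, where 29.1% of all genes were lower, and 11 were lower and 0 higher in WT, where 23.9% were. Whether these genes differed from the Zfp family in their course was not tested.

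Several members with a role in lineage choice rose at d6. Of 15 tested, 9 were higher and 1 lower at d6 than at d3 in Carma3xpA/+, where 37.8% of all genes were higher, and 9 were higher and 0 lower in WT, where 35.4% were. Zfp711, a partner of the histone demethylase PHF8, had 9.73, 9.83 and 12.2 FPKM at d6 in Carma3xpA/+, against 0.818, 0.834 and 0.728 FPKM at d3, and 6.65, 6.86 and 9.71 FPKM in WT, against 0.736, 0.977 and 1.17 FPKM. The change was 2.68 ± 0.18 in Carma3xpA/+ (limma adjusted p = 1.2e-10) and 2.14 ± 0.18 in WT. By d10 it was back at 0.962 to 2.49 FPKM in Carma3xpA/+ and 2.48 to 3.31 FPKM in WT.

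Zfp516, a regulator of brown fat, rose by 2.44 in Carma3xpA/+ and 2.03 in WT at d6 and fell by 1.31 and 0.97 at d10. Zfp521, which acts in blood and neural precursors, rose by 1.65 and 1.49 at d6. Zfp503 rose by 1.83 and 1.95 at d6 and again by 0.82 and 0.67 at d10, and so was one of the few members with its highest level on the last day. Zfp9, on chromosome 6, was near 0 at d3, with 0.0109 to 0.128 FPKM in Carma3xpA/+ and 0.079 to 0.115 FPKM in WT. At d6 it had 3.79 to 3.93 FPKM in Carma3xpA/+ and 4.24 to 4.51 FPKM in WT, a log2 change of 2.20 ± 0.11 and 2.29 ± 0.11.

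**Figure D3:**
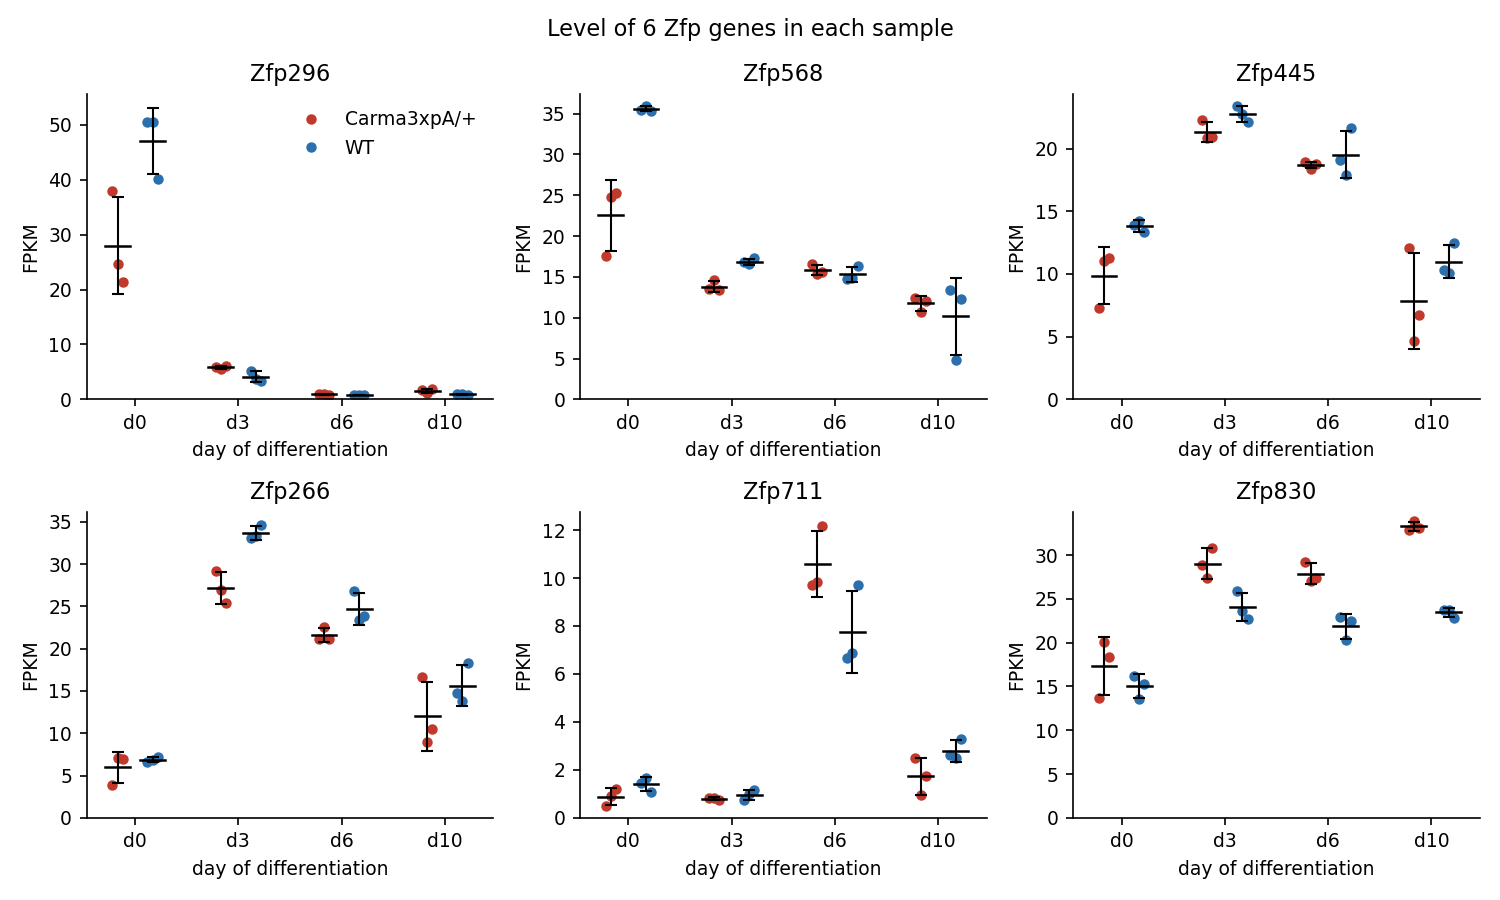
FPKM (y axis, linear from 0) of 6 Zfp genes on each day (x axis) in Carma3xpA/+ (red) and WT (blue). Points are libraries and black bars the mean and SD of 3 libraries. Zfp296 is high at d0 and at 0.717 to 1.00 FPKM at d6, Zfp266 and Zfp445 rise at d3, Zfp711 peaks at d6, Zfp568 is lower at d3 than at d0, and Zfp830 is higher in every Carma3xpA/+ library than in any WT library at d3, d6 and d10.

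Of 11 members that act on RNA, ribosomes or protein turnover, 2 were higher and 6 lower at d6 than at d3 in Carma3xpA/+. Of all genes 37.8% were higher and 25.5% lower there. In WT 1 of the 11 was higher and 5 lower, where 35.4% of all genes were higher and 24.7% lower. The median changes of the list were -0.23 in Carma3xpA/+ and -0.24 in WT. Zfp106 fell in both later steps, to 13.1 to 17.6 FPKM at d10 in Carma3xpA/+, against 25.3 to 32.6 FPKM at d6, and to 15.7 to 16.3 FPKM in WT, against 25.2 to 27.3 FPKM. Zfp622, a factor of late 60S ribosome assembly, fell by 0.65 in Carma3xpA/+ and 0.73 in WT at d3 and rose by 0.37 in both at d10. Zfp638 rose by 1.13 and 0.79 at d3 and fell by 0.60 and 0.68 at d6. Zfp281, a transcription factor of embryonic stem cells, fell by 0.74 and 0.68 at d6.

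By chromosome, the median change of the members at d3 against d0 was positive on each of the 12 chromosomes with at least 9 tested members in both genotypes. It was highest on chromosome 15, at 1.04 in Carma3xpA/+ and 1.19 in WT over 9 members, and 0.69 and 0.78 on chromosome 13 over 26. Chromosome 7, which holds the most members, had 40 of 80 higher and 7 lower in Carma3xpA/+ and 41 higher and 9 lower in WT. Of all genes 27.5% were higher and 24.9% lower in Carma3xpA/+, and 27.7% each way in WT. The median change was lowest on chromosome 4, at 0.29 and 0.20 over 29 members. At d10 against d0 chromosome 4 had 20 of 29 members lower and 6 higher in both genotypes, with medians of -0.93 in Carma3xpA/+ and -1.62 in WT, and the other 11 chromosomes had medians from -0.04 to 0.48 in Carma3xpA/+ and from 0.08 to 0.76 in WT. Of all genes 27.3% were lower and 40.9% higher at d10 than at d0 in Carma3xpA/+, and 28.6% and 42.2% in WT.

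The clusters shared the rise at d3. All 20 had a positive median change in Carma3xpA/+, from 0.16 to 1.04, and 19 did in WT, from -0.17 to 1.09. In the chromosome 13 cluster, which runs from Zfp712 to Zfp273 at chr13:67038596-67827002, 15 of 16 tested members were higher in Carma3xpA/+ and 14 in WT, and 0 were lower. In the large chromosome 17 cluster from Zfp160 to Zfp13 at chr17:21008941-23599487, 17 of 23 were higher in Carma3xpA/+ and 19 in WT. Of all genes 27.5% were higher in Carma3xpA/+ and 27.7% in WT. At d10 against d6 all 20 medians were negative in both genotypes, from -0.82 to -0.10 in Carma3xpA/+ and from -0.45 to -0.08 in WT. Clusters are genome neighbours with shared sequence, so their genes are not independent of each other.

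The exception in WT at d3 was the chromosome 4 cluster, 18 genes from Zfp990 to Zfp933 at chr4:145510759-147848366 (GRCm38, the mm10 build). All 18 had the KRAB pattern. Most share much sequence with other genes: a median of 71.5% of the 50-base stretches of their transcripts, from 1.07 to 93.1%, also occurred in other genes. Reads may thus have been shared between genes, and the value of a single gene is uncertain. The part of this sharing that lay within the cluster was not counted, so the sum may be touched as well. Promoter sequences of RefSeq (GRCm38.p6) could be matched for 281 of the 342 members and for 12 of these 18. After the sequences were compared, a stretch of 15 bases, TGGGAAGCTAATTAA, was chosen as the longest shared by at least 10 of the 12. The search thus set its count of 10 in the cluster. This stretch was in 12 of all 27025 promoters (0.0444%), both strands searched, and the other 2 holders, Gm13212 and Rex2, lie inside the same cluster. Zfp933 and Zfp993 lacked it. The 250 bases before the start of 4 members are shown for the likeness of these promoters, with the shared stretch in capitals. They are Zfp600 at chr4:146156577-146156826 (plus strand), Zfp979 at chr4:147642509-147642758 (minus strand), Zfp988 at chr4:147305354-147305603 (plus strand) and Zfp534 at chr4:147702632-147702881 (minus strand). Each is written 5′ to 3′ along the gene.
Zfp600: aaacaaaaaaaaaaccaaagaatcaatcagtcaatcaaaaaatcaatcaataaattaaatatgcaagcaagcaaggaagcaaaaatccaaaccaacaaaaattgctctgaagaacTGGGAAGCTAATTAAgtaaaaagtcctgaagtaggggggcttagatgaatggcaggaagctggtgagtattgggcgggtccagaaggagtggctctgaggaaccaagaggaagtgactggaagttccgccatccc
Zfp979: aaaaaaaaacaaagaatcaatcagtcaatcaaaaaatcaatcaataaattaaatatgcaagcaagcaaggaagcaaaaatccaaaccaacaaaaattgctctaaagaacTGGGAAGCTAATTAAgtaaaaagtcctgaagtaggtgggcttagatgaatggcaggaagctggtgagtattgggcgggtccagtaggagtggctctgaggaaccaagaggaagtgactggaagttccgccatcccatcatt
Zfp988: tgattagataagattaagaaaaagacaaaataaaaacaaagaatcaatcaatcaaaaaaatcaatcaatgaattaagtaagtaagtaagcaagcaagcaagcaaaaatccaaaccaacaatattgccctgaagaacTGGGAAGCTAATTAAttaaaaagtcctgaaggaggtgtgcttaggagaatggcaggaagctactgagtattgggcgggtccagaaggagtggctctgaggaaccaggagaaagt
Zfp534: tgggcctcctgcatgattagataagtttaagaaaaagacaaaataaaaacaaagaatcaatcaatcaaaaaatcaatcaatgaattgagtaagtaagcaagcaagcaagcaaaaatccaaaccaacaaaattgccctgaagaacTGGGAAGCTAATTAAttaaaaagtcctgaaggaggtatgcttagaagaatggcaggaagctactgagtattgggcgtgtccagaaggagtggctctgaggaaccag
Aligned over the whole RefSeq window, from 250 bases before to 50 bases after the start, Zfp600 and Zfp979 were 94.4% identical and Zfp988 and Zfp534 89.5%, while Zfp600 and Zfp534 were 72.2% identical. Over all 66 pairs of the 12 promoters the median identity was 70.6% and the lowest 40.5%, and only 1 pair reached 90%. The reference is of the C57BL/6J strain and the cells were 129/Sv. In the same window, the letters CCAAT, on either strand, were in 10 of the 12 cluster promoters, in 51.2% of the 281 members and in 37.9% of all promoters. Of the members with the KRAB pattern 65.4% held CCAAT. The letters TATAAA were in 5.69% of the members and 14.2% of all promoters.

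The level of this cluster changed most between d3 and d6. The sum over the 18 genes was 280, 290 and 340 FPKM in Carma3xpA/+ at d0, then 406, 419 and 405 FPKM at d3, 108, 110 and 131 FPKM at d6, and 68.8, 46.0 and 62.7 FPKM at d10. In WT it was 315, 295 and 304 FPKM at d0, then 329, 264 and 253 FPKM at d3, 69.1, 67.4 and 80.1 FPKM at d6, and 52.3, 50.8 and 43.6 FPKM at d10. At d6 against d3, 17 of 18 were lower and 0 higher in both genotypes, with a median change of -2.06 in Carma3xpA/+ and -2.02 in WT, whereas the other 311 members had medians of 0.07 and -0.04. Of all genes 25.5% were lower at this step in Carma3xpA/+ and 24.7% in WT. Zfp980 fell by 3.29 ± 0.17 in Carma3xpA/+ and by 3.24 ± 0.17 in WT. At d10 17 of the 18 were lower than at d0 in both genotypes, and the exception was Zfp933. Of all genes 27.3% were lower at d10 than at d0 in Carma3xpA/+ and 28.6% in WT.

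Between genotypes, members of this cluster differed at d3 and d6. At d3 11 of the 18 were higher in Carma3xpA/+ than in WT and 0 lower, with a median difference of 0.54, and at d6 10 were higher and 0 lower, with a median of 0.62. Of all genes tested 6.47% were called at d3 and 7.78% at d6. The other 311 members had 7 higher and 10 lower at d3 and 12 higher and 3 lower at d6, with medians of -0.09 and -0.00. At d0 3 of the 18 were higher and at d10 4, with 0 lower on either day, where 18.8% and 10.9% of all genes were called. The d10 count was 1 or 2 without any one of the WT d10 libraries and 2 without replicate 3 of Carma3xpA/+ at d10. The sums do not overlap between genotypes at d3 and d6 and do at d0 and d10. With a pseudocount of 0.1 FPKM in place of 1, 5 of the 18 were called at d3. In the fits that left out 1 library, 6 to 12 were called at d3 and 7 to 11 at d6. The lowest d3 counts were 6 without replicate 2 or 3 of WT at d3 and 7 without replicate 1 or 2 of Carma3xpA/+ at d3.

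Zfp600 had 14.8, 15.2 and 16.6 FPKM in Carma3xpA/+ and 8.18, 4.68 and 4.68 FPKM in WT at d3, a log2 difference of 1.31 ± 0.26 (SE; limma adjusted p = 0.0032), which was lost with a pseudocount of 0.1. At d6 Zfp600 had 1.47 to 1.58 FPKM in Carma3xpA/+ and 0.0964 to 0.363 FPKM in WT. Zfp981 differed by 1.22 ± 0.21 at d3, with 16.3 to 21.3 FPKM in Carma3xpA/+ and 4.90 to 9.99 FPKM in WT. Zfp992 was higher in Carma3xpA/+ on all 4 days, though the d0 call was lost when only the d0 libraries were fitted. It had 21.8 to 23.8 FPKM in Carma3xpA/+ and 14.9 to 15.8 FPKM in WT at d0, and 10.8 to 12.7 FPKM in Carma3xpA/+ and 8.09 to 8.70 FPKM in WT at d10. Zfp979 differed by 0.82 ± 0.15 at d6, with 8.80 to 11.8 FPKM in Carma3xpA/+ and 4.47 to 6.66 FPKM in WT.

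**Figure D4:**
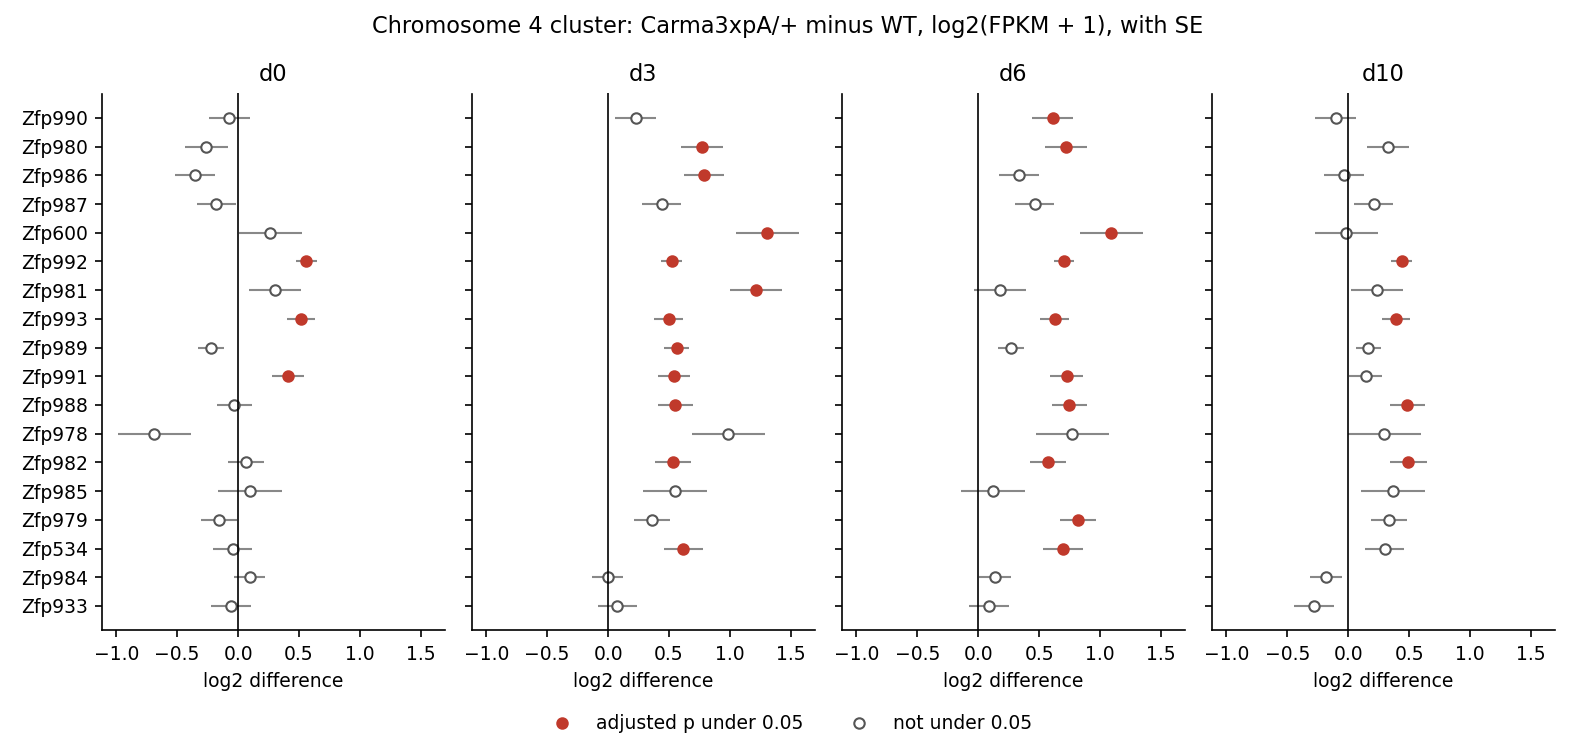
Log2 difference, Carma3xpA/+ minus WT (x axis, log2(FPKM + 1) scale), of the 18 genes of the chromosome 4 cluster in genome order (y axis) on each day, with the SE from the fit. Filled red points have an adjusted p under 0.05 and open points do not. At d3 11 points are filled and at d6 10, all to the right of 0, while at d0 3 and at d10 4 are.

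Of 99 tested genes within 5 Mb on either side of the cluster, 10 were higher and 19 lower in Carma3xpA/+ at d0, where 9.53% of all genes were higher and 9.29% lower. At d3 4 of the 99 were higher and 3 lower, where 4.54% and 1.93% of all genes were, with a median of -0.01. At d6 1 was higher and 5 lower, where 4.30% and 3.48% were, and at d10 5 were higher and 3 lower, where 4.95% and 5.91% were. The 3 tested genes inside the cluster that are not named Zfp, Gm13212, Gm21411 and Rex2, had 2 higher and 0 lower at d3 and again at d6, with medians of 0.77 and 0.85. At d3 the summed level of embryonic stem cell markers overlapped between genotypes, at 516 to 598 FPKM in Carma3xpA/+ and 535 to 546 FPKM in WT, and 0 of these 6 markers was called. Of the other marker lists at d3, 1 of 6 cardiomyocyte and 1 of 4 endothelial markers were higher in Carma3xpA/+, and no fibroblast, blood, visceral endoderm or neural marker was called. At d6 it was 53.6 to 67.5 FPKM in Carma3xpA/+ and 53.4 to 64.3 FPKM in WT, with 1 of 6 higher. Also at d6, visceral endoderm markers summed to 402 to 523 FPKM in Carma3xpA/+ and 124 to 164 FPKM in WT, with 3 of 4 higher in Carma3xpA/+, and blood markers to 1467 to 2339 FPKM in Carma3xpA/+ and 2181 to 4385 FPKM in WT, with 2 of 5 lower. Fibroblast markers at d6 summed to 69.8 to 94.4 FPKM in Carma3xpA/+ and 75.8 to 224 FPKM in WT, with 5 of 8 lower. Neural markers summed to 2.79 to 5.56 FPKM in Carma3xpA/+ and 7.95 to 9.56 FPKM in WT, with 2 of 3 tested lower. Of the cardiomyocyte markers 1 of 6 was lower, and of the endothelial markers 0 of 4 was called. Their part in the cluster's difference at d6 was not tested.

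Over the whole family, the cluster included, few members differed between genotypes. At d0 9 of 329 members were higher in Carma3xpA/+ and 22 lower, where 9.53% of all genes were higher and 9.29% lower. At d3 18 were higher and 10 lower, where 4.54% and 1.93% of all genes were. At d6 22 were higher and 3 lower, where 4.30% and 3.48% were. At d10 6 were higher and 14 lower, where 4.95% and 5.91% were. As shares of the members these are 2.74% and 6.69%, 5.47% and 3.04%, 6.69% and 0.912%, and 1.82% and 4.26%, so the d0 and d10 counts lie below those of all genes, and the d3 count of higher members lies near them.

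The direction at d10 rested on single libraries and on scaling. Without replicate 1 of Carma3xpA/+ at d10, 4 members were higher and 72 lower, without replicate 2 there were 8 higher and 3 lower, and after quantile normalization there were 16 higher and 12 lower. At d0, fitting only the d0 libraries gave 0 called members by limma with Benjamini-Hochberg adjustment, with 48 at an unadjusted p under 0.05, and without replicate 1 of Carma3xpA/+ at d0 there were 8 higher and 15 lower. Leaving that library out of the common fit gave 24 higher and 19 lower members at d3 and 9 higher and 32 lower at d10. At d3, a fit of the d3 libraries alone called 25 higher and 41 lower, and leaving out a d3 library gave 12 higher and 2 lower without replicate 3 of WT or replicate 1 of Carma3xpA/+.

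Single members with a genotype difference included Zfp951, on chromosome 5. It had 8.01, 7.53 and 7.90 FPKM in Carma3xpA/+ and 3.62, 2.69 and 2.94 FPKM in WT at d3, a log2 difference of 1.12 ± 0.15 (limma adjusted p = 6.6e-05), and 2.68 to 2.97 FPKM in Carma3xpA/+ and 0.818 to 1.22 FPKM in WT at d6. Zfp830, a protein of the spliceosome encoded on chromosome 11, had 32.9, 33.9 and 33.1 FPKM in Carma3xpA/+ and 23.8, 23.8 and 22.8 FPKM in WT at d10, a difference of 0.49 ± 0.10 (limma adjusted p = 0.0032). On chromosome 11 as a whole, 248 of 1072 other genes were higher in Carma3xpA/+ at d10 and 24 lower, with a median of 0.22. Of all genes 4.95% were higher and 5.91% lower on that day. The other days had a like excess on this chromosome, with 240 higher and 21 lower at d0, 242 and 1 at d3, and 222 and 19 at d6. The part of the whole chromosome in the value of Zfp830 was not tested.

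At d0 Zfp296 was lower in Carma3xpA/+, at 38.0, 24.6 and 21.4 FPKM, against 50.5, 50.5 and 40.1 FPKM in WT, a difference of -0.76 ± 0.16 (limma adjusted p = 0.0036). Its fall at d3 was smaller in Carma3xpA/+, by 1.202 on the log2 scale. Zfp568 was lower as well, by -0.65, with no overlap between genotypes, but that call was lost without replicate 1 of Carma3xpA/+ at d0 and without any of the WT d0 libraries. Zfp185 had 1.95, 3.03 and 2.35 FPKM in Carma3xpA/+ and 5.87, 5.28 and 4.95 FPKM in WT at d0, and 1.92 to 2.12 FPKM in Carma3xpA/+ and 3.38 to 3.89 FPKM in WT at d3. By d6 its order had turned, with 4.22 to 5.38 FPKM in Carma3xpA/+ and 2.97 to 3.91 FPKM in WT. All d0 calls named in this paragraph were lost when only the d0 libraries were fitted.

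In the chromosome 17 cluster from Zfp160 to Zfp13, some members differed between genotypes in the last step. The cluster's summed level was 77.0, 48.5 and 61.3 FPKM at d10 in Carma3xpA/+, against 115, 112 and 132 FPKM at d6, and 78.6, 79.0 and 93.8 FPKM in WT, against 94.4, 98.4 and 117 FPKM. Replicate 2 of Carma3xpA/+ at d10, the lowest here, also had the lowest sum of the whole family, 1076 FPKM. Its total over all genes, 306848 FPKM, was the highest of the 24 libraries. At d10 against d6, 20 of 23 members were lower and 0 higher in Carma3xpA/+, where 29.1% of all genes were lower. In WT 7 were lower and 1 higher, where 23.9% of all genes were lower. The difference between these changes was itself past the threshold for 7 of the 23, all more negative in Carma3xpA/+, where 4.22% of all genes were called. Zfp948, for example, had 10.1 to 12.4 FPKM in Carma3xpA/+ and 14.5 to 18.4 FPKM in WT at d10, and 21.7 to 23.9 FPKM in Carma3xpA/+ and 15.7 to 21.6 FPKM in WT at d6. Each of the 7 except Zfp52 was lost in at least 1 fit that left out a library.

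The same test of a difference between genotypes in a step was made for every member. For d3 against d0, 12 members had a more positive change in Carma3xpA/+ and 0 a more negative one, where 3.63% of all genes were called, 2.07% more positive and 1.56% more negative. Of the 12, Zfp978, Zfp980, Zfp986 and Zfp989 belong to the chromosome 4 cluster. For d6 against d3 the counts were 2, Zfp12 and Zfp185, and 0, where 2.66% of all genes were called, 0.785% more positive and 1.88% more negative. For d10 against d6 they were 0 and 10, where 1.51% and 2.71% were. These counts ranged from 7 to 18, from 2 to 9 and from 3 to 51 in the fits that left out 1 library, and the 51 came without replicate 1 of Carma3xpA/+ at d10.

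**Figure D5:**
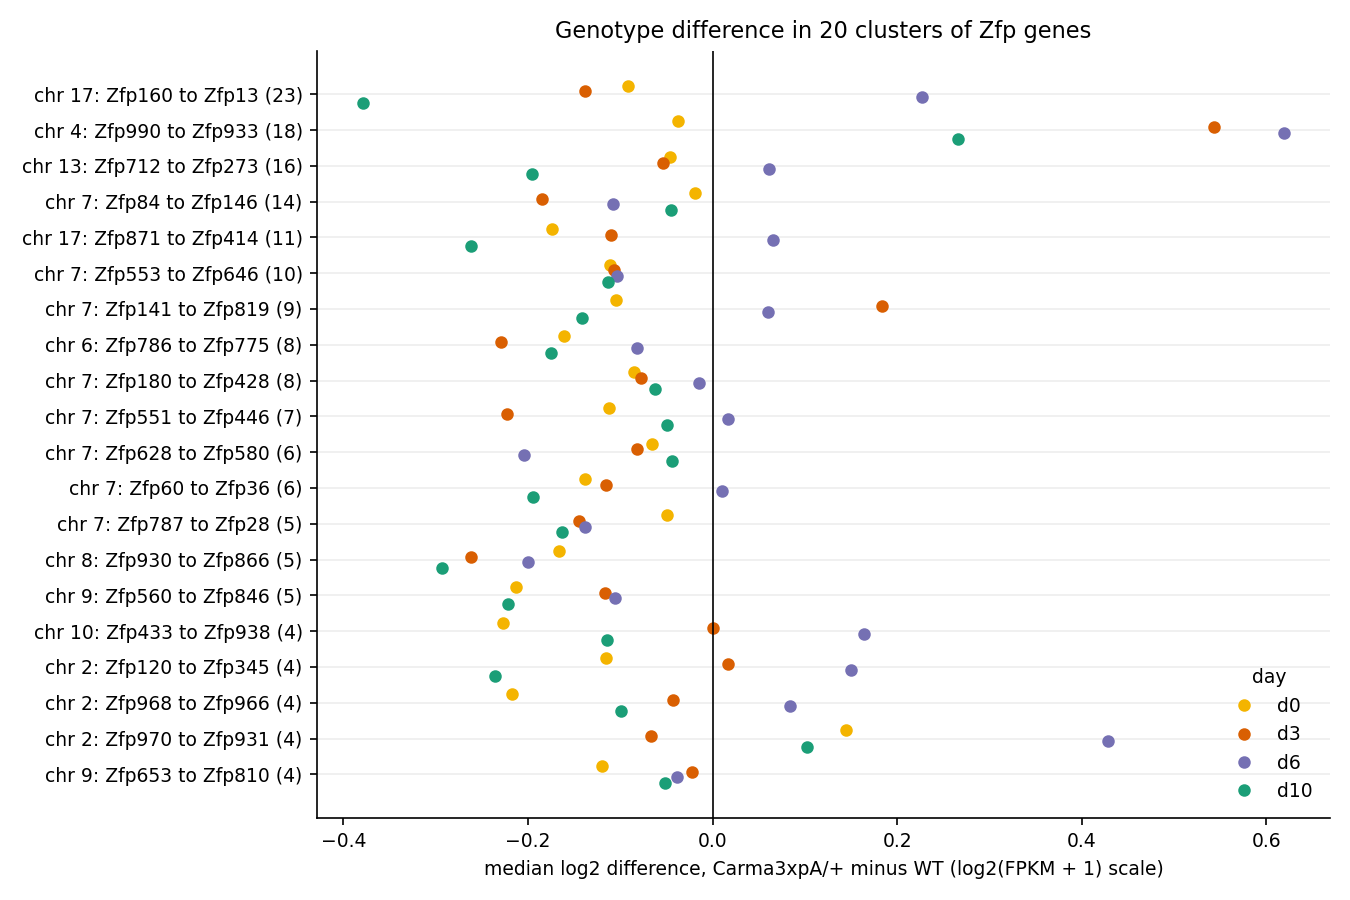
Median log2 difference, Carma3xpA/+ minus WT (x axis, log2(FPKM + 1) scale), of the tested genes in each of 20 clusters (y axis: chromosome, first and last gene, number of genes tested) on 4 days (colours). The chromosome 4 cluster has medians of 0.54 at d3, 0.62 at d6 and 0.27 at d10, and the chromosome 17 cluster from Zfp160 to Zfp13 has 0.23 at d6 and -0.38 at d10.

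At d10 several marker lists differed between the genotypes. Cardiomyocyte markers summed to 657 to 956 FPKM in Carma3xpA/+ and 264 to 358 FPKM in WT, with 6 of 6 higher in Carma3xpA/+. Fibroblast markers summed to 293 to 403 FPKM in Carma3xpA/+ and 658 to 846 FPKM in WT, with 4 of 8 lower. Neural markers summed to 18.4 to 33.9 FPKM in Carma3xpA/+ and 32.9 to 44.2 FPKM in WT, with 2 of 3 tested lower. Endothelial markers summed to 16.9 to 32.2 FPKM in Carma3xpA/+ and 13.6 to 18.7 FPKM in WT, with 2 of 4 higher, and 2 of 6 embryonic stem cell markers were higher. No blood or visceral endoderm marker was called. Their part in the values of the chromosome 17 cluster was not tested.

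The transcript table listed 341 of the members, 131 with 1 transcript and 210 with several. Zfp990 of the chromosome 4 cluster was one with several. Its transcript Zfp990-202 averaged 0.0387 ± 0.0670 FPKM at d6 in Carma3xpA/+, against 55.9 ± 11.3 FPKM at d3, and 6.26 ± 10.8 FPKM in WT, against 52.8 ± 21.3 FPKM (SD, n = 3). Zfp990-201 averaged 32.6 ± 5.00 FPKM at d6 in Carma3xpA/+, against 27.3 ± 15.4 FPKM at d3, and 14.98 ± 13.6 FPKM in WT, against 18.7 ± 13.1 FPKM. The spread between replicates of each transcript is wide, and the transcripts were not tested.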

How the data were processed

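The values deposited by the authors are FPKM per gene and per transcript, per the file headers. The submitters' processing notes name mm10, FastQC, cutadapt, HISAT2 and StringTie, without versions or settings. Here log2(FPKM + 1) was taken with no other scaling. All genes that reached 1 FPKM in 3 or more of 24 libraries entered 1 fit with limma 3.58.1 in R 4.3.3 (1 mean per group, 16 residual degrees of freedom, trend of variance on mean), with 15 comparisons, two-sided, each adjusted by Benjamini-Hochberg at 0.05. Mean ± SD values are over 3 libraries. Depth is unknown, since low values shared no whole-read step between libraries. Tested on simulated data of the genotype comparison at d3, the fit called 18 of 50 genes changed by 0.5, 45 of 50 by 1 and 50 of 50 by 2 (log2), and 5 of 13173 unchanged genes.

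Coordinates are from the gene table, and 12954 of 14737 records had the same versioned identifier and span in GENCODE M21 (GRCm38), as did 302 of the 342 members. Protein patterns were counted in the longest open reading frame of the GENCODE transcripts (Biopython 1.88, Python 3.11.15).

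Members and lists were chosen with earlier results of these data known. Named genes were, per comparison, the 5 largest called changes each way with at least 2 FPKM in the higher group and no overlap between replicates, the 3 largest each way per difference between genotypes in a step, the members on lists of known roles, the corepressor genes and the 5 highest members. Other called members named to spell out a count were chosen after their values were seen, and some genes that the rule takes in are summarised by counts. Alternatives were quantile and median-of-ratios scaling, a pseudocount of 0.1 FPKM, a stricter filter of 5 FPKM and none, fits that hold only the compared groups, a block for the replicate number, clusters within 1 Mb, a shorter KRAB pattern and leaving out each library. Leaving replicate 1 of Carma3xpA/+ at d0 out of comparisons that do not contain it was chosen after seeing the data.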

Additional observations from a re-analysis of the deposited data

Results flagged for a closer look

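For 24 pairs of a member and a step, the change between days differed between Carma3xpA/+ and WT by limma's test of the difference itself (Benjamini-Hochberg adjusted p under 0.05). Values are the log2 change in Carma3xpA/+ minus that in WT.

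At d3 against d0 the 12 members and their differences were Zfp978 with 1.67, Zfp296 with 1.202, Zfp986 with 1.14, Zfp936 with 1.10, Zfp980 with 1.03, Zfp352 with 1.00, Zfp423 with 0.82, Zfp977 with 0.80, Zfp750 with 0.79, Zfp989 with 0.78, Zfp809 with 0.74 and Zfp941 with 0.66. Zfp941 had 5.55, 5.14 and 4.93 FPKM at d3 in Carma3xpA/+, against 1.83, 2.08 and 2.35 FPKM at d0, and 2.95, 3.11 and 3.07 FPKM in WT, against 2.03, 1.86 and 2.71 FPKM. Zfp936, on chromosome 7, had 10.1, 10.2 and 8.49 FPKM at d3 in Carma3xpA/+, against 8.26, 12.5 and 11.3 FPKM at d0, and 6.70, 5.70 and 4.58 FPKM in WT, against 15.3, 15.3 and 12.9 FPKM. Zfp352, a gene of early embryos, was at 0.0442 to 0.176 FPKM at d3 in Carma3xpA/+, against 0.487 to 0.767 FPKM at d0, and at 0.0662 to 0.0876 FPKM in WT, against 1.87 to 2.50 FPKM.

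At d6 against d3 Zfp12 differed by 2.28 and Zfp185 by 0.98. Zfp12 had 6.44, 2.69 and 5.70 FPKM at d6 in Carma3xpA/+, against 1.06, 3.52 and 0.926 FPKM at d3, and 1.45, 1.77 and 1.67 FPKM in WT, against 4.91, 4.73 and 4.95 FPKM, so in Carma3xpA/+ replicate 2 departed from the others on both days.

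At d10 against d6 the 10 members were more negative in Carma3xpA/+. Zfp54 differed by -1.07, Zfp52 by -1.03, Zfp711 by -0.93, Zfp185 by -0.74, Zfp948 by -0.71, Zfp40 by -0.66, Zfp994 by -0.62, Zfp995 by -0.56, Zfp651 by -0.50 and Zfp947 by -0.48. Of these, Zfp40, Zfp52, Zfp54, Zfp947, Zfp948, Zfp994 and Zfp995 lie in the chromosome 17 cluster. Zfp52 had 1.90, 1.93 and 1.76 FPKM at d10 in Carma3xpA/+, against 2.64, 2.30 and 2.90 FPKM at d6, and 2.61, 2.78 and 3.78 FPKM in WT, against 1.57, 1.22 and 1.70 FPKM.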

How the results depend on the processing

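No direction of a named call reversed under any alternative, and 295 of 426 named values stayed past the threshold in all of them. Of the rest, 100 were lost under at least 1 setting other than leaving out a library, and 106 without at least 1 library. The filter at 5 FPKM tests fewer members. It called 115, 90, 118 and 116 members in Carma3xpA/+ for d3 against d0, d6 against d3, d10 against d6 and d10 against d0, and 112, 85, 89 and 114 in WT, 18, 13 and 9 between genotypes at d0, d6 and d10, and 7, 1 and 2 for the differences between genotypes in the 3 steps. A fit of only the groups compared called 0 members at d0, 66 at d3 and 4 at d10 between genotypes, 0 and 1 genes of the chromosome 4 cluster at d0 and d10, and 6, 17 and 4 for the differences in the 3 steps. A pseudocount of 0.1 FPKM called 5 genes of the chromosome 4 cluster at d3 and 6 and 5 members for the differences at d3 and d10, and quantile normalization 4 for the difference at d6 against d3. Except for the filter's fewer genes, the cause was not tested. With clusters defined within 1 Mb there were 22 in place of 20, and the shorter KRAB pattern matched 176 members in place of 157.

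The labels do not say that replicate numbers pair the samples. In 0 of 12 comparisons did every same-numbered pair of libraries deviate together with a correlation over 0.1. Single pairs ran from -0.26 to 0.24. With 3 libraries per group this check cannot exclude a pairing. With the replicate block, 4 members in place of 2 were called for the difference at d6 against d3, and the other counts stayed within 1.5 times.

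Leaving out 1 library gave 195 to 215, 152 to 181, 162 to 213 and 192 to 208 members for the 4 day comparisons in Carma3xpA/+ and 197 to 226, 140 to 167, 107 to 173 and 198 to 222 in WT. Between genotypes it gave 15 to 53 at d0, 14 to 43 at d3, 11 to 32 at d6 and 8 to 76 at d10, and in the chromosome 4 cluster 2 to 3, 6 to 12, 7 to 11 and 1 to 4. For the differences in the 3 steps it gave 7 to 18, 2 to 9 and 3 to 51. The counts between genotypes moved most without replicate 2 of Carma3xpA/+ at d0 (53 at d0), without replicate 1 of Carma3xpA/+ at d0 (43 at d3 and 41 at d10) and without replicate 1 of Carma3xpA/+ at d10 (76 at d10). The lowest counts came without replicate 1 of WT at d0 (15), replicate 3 of WT or 1 of Carma3xpA/+ at d3 (14), replicate 2 of WT or 3 of Carma3xpA/+ at d6 (11) and replicate 3 of either genotype at d10 (8). For the differences in the 3 steps, the extremes came without replicate 3 of WT or 1 of Carma3xpA/+ at d3 (7), replicate 1 of Carma3xpA/+ at d0 (9 for the second step), and replicate 3 of WT (3) or 1 of Carma3xpA/+ (51) at d10. FPKM gives no depth, so no detection limit can be set for low members.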

Other observations

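In a pair of clusters most members ended above their d0 level. In the chromosome 7 cluster from Zfp553 to Zfp646, 7 of 10 members were higher at d10 than at d0 in Carma3xpA/+ and 8 in WT, with 1 lower in each, where 40.9% of all genes were higher in Carma3xpA/+ and 42.2% in WT. In the chromosome 6 cluster from Zfp786 to Zfp775, 7 of the 8 tested were higher in Carma3xpA/+ and 8 in WT, with 0 lower. Both clusters were picked after their values were seen. Zfp768 had 7.74, 5.05 and 6.62 FPKM at d10 in Carma3xpA/+, against 0.297, 1.00 and 1.47 FPKM at d0, and 8.50, 8.28 and 7.61 FPKM in WT, against 1.12 ± 0.495 FPKM (SD, n = 3). Zfp771 had 6.55, 7.01 and 6.77 FPKM at d10 in Carma3xpA/+, against 2.44, 1.93 and 1.87 FPKM at d0, and 7.58, 7.16 and 7.04 FPKM in WT, against 1.44, 2.07 and 0.831 FPKM.

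Zfp871, a member on chromosome 17, fell at d10 in both genotypes. It had 2.92, 1.30 and 1.48 FPKM at d10 in Carma3xpA/+, against 7.12, 8.73 and 7.85 FPKM at d6, and 2.80, 2.65 and 3.14 FPKM in WT, against 6.27, 7.16 and 8.21 FPKM. The fall was 1.65 ± 0.17 in Carma3xpA/+ and 1.08 ± 0.17 in WT on the log2 scale (SE), and the difference between them had a limma adjusted p of 0.213.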
